A study of Mus musculus with 4 samples.

Results

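The cells described here are called epithelial cells of the neonatal mouse uterus, the sheet of cells that lines its lumen, because they met a marker rule. Some met it only just and held few epithelial genes outside it. All were chosen from the called barcodes of both uterine libraries of a single-cell RNA study of the oviduct and the uterus. A barcode was first kept if 500 or more genes were detected in it and mitochondrial genes supplied no more than 15% of its UMIs (unique molecular identifiers, 1 per captured RNA molecule). It was then taken as epithelial if at least 3 of the 7 genes Epcam, Cldn3, Cldn7, Wfdc2, Cdh1, Ehf and Krt18 were detected, if these 7 made up at least 0.1% of its UMIs, and if it held 0 UMIs of Upk3b, a mesothelial gene, and of Pecam1, an endothelial gene. The rule found 158 cells, 57 in uterus replicate 1 and 101 in uterus replicate 2, of 8566 kept uterine barcodes and of 26619 called barcodes in all 4 libraries. All libraries came from untreated wild-type CD1 mice at postnatal day 3, 2 libraries per organ, and the labels describe the cells as mesenchymal and epithelial. Both organs of the same neonates were used, in pools of 3 and 4 animals, after digestion in Collagenase B, Dispase II and DNase I. The same rule found 466 cells in the oviduct libraries (167 and 299), which serve as the comparison. With 2 libraries per organ, p-values measure only the spread between these 4 libraries, and the animals are shared between the organs.

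As background, the uterus, the oviduct and the upper vagina form from the Müllerian duct, a tube of epithelium whose fate along its length is set together with the stroma around it. Shortly after birth the uterine epithelium of the mouse is still a simple, gland-free lining. Uterine glands bud from it later in the first weeks, while the oviduct epithelium is by then splitting into multiciliated and secretory cells. Msx and Dlx homeobox factors and the ligand Wnt7a are known regulators of the uterine lining and of its talk with the stroma, and Foxa2 is the classic factor of uterine glands.

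Cells that met the rule were rare and mostly shallow in the uterine libraries. They made up 1.40% and 2.24% of the kept barcodes of the 2 uterine libraries and 2.41% and 5.12% in the oviduct (1.82% ± 0.591 and 3.77% ± 1.91, mean ± SD, n = 2 libraries each). Every uterine value was below both oviduct values, and the exact permutation test (2-sided) gave p = 0.333, the smallest that 2 against 2 libraries allow. With the marker share raised from 0.1% to 0.3%, a setting chosen after seeing the data, the libraries overlapped (exact permutation p = 0.667).

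Of the uterine epithelial cells, 17 and 20 held at least 5000 UMIs (called deep from here on), 29.8% and 19.8%. In the oviduct 46.1% and 43.8% were deep (24.8% ± 7.09 against 44.96% ± 1.62, n = 2 libraries each, exact permutation p = 0.333). The 37 deep uterine cells had medians of 9739 and 19282 UMIs, and the 121 shallow ones, 40 and 81, had medians of 1765.5 and 1438. The deep cells supplied 73.8% and 80.4% of all UMIs of the uterine epithelium, and the single deepest cell of each library supplied 21.3% and 21.9% of the deep sums of 258747 and 583511 UMIs. The deep oviduct cells numbered 77 and 131, with sums of 3004156 and 4106891 UMIs. Mitochondrial genes made up 8.69% and 6.48% of the summed UMIs of deep uterine cells and 6.13% and 3.60% of those of shallow ones. With the boundary at 10000 UMIs they made up 7.96% of the deep and 8.10% of the shallow sum in replicate 1, so the order there turned, and 6.20% and 5.14% in replicate 2. The cut at 5000 UMIs is a range of depth and not a cell type.

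**Figure D1:**
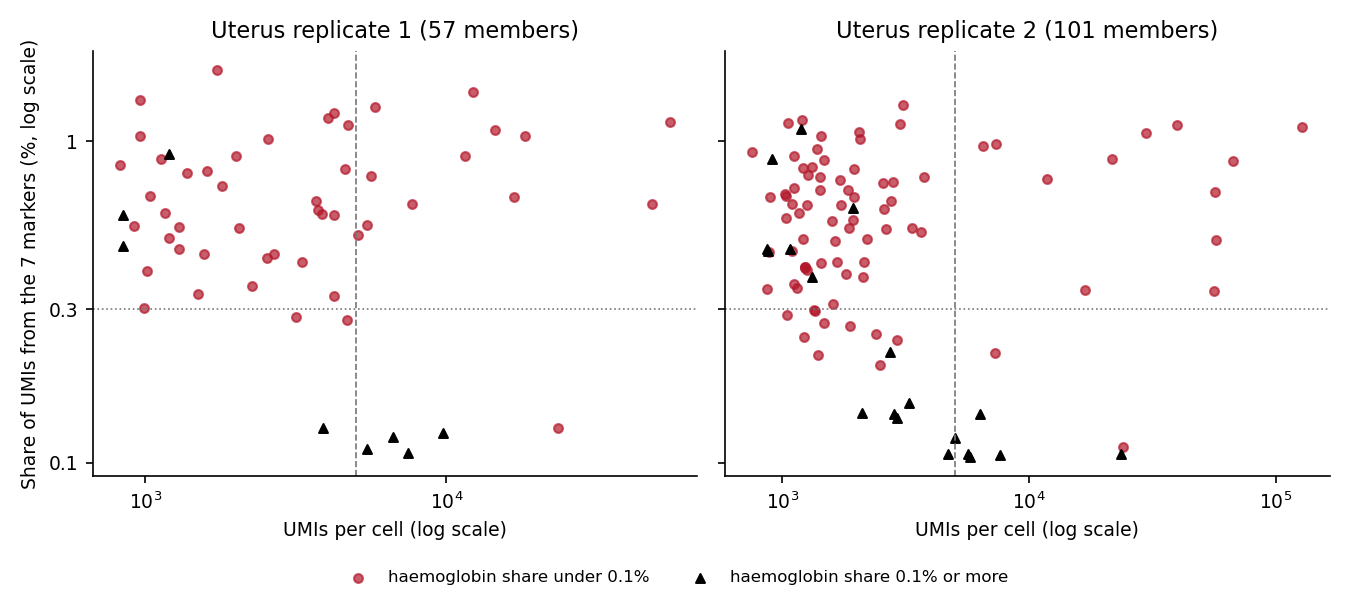
Each point is 1 uterine epithelial cell of replicate 1 (left) or replicate 2 (right); the x axis gives its UMIs and the y axis the share of UMIs from the 7 markers of the rule, both on log scales. Black triangles are cells with at least 0.1% haemoglobin UMIs, the dashed line marks 5000 UMIs and the dotted line a marker share of 0.3%; among deep cells all triangles lie below the dotted line.

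The deep cells were divided into 2 ranges of marker share at 0.3%, a boundary chosen after seeing the data. In 12 cells of each library the 7 markers made up at least 0.3% of UMIs (0.510% to 1.43% in replicate 1, 0.342% to 1.13% in replicate 2), and these 24 cells held 79.6% and 85.4% of the deep UMIs. In the other 5 and 8 cells the markers made up 0.107% to 0.128% and 0.104% to 0.219%. All but the replicate 2 cell at 0.219% had at most 0.142%, not far inside the threshold of 0.1%. The next barcodes outside it that met the rest of the rule reached 0.0841% and 0.0982%, and 74 and 162 deep barcodes lay below 0.1%. In droplets not called as cells the same markers made up 0.0522% and 0.0581% of UMIs. The marker shares are part of the rule and are given as a description.

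Measures outside the rule also differed between these 2 ranges. Haemoglobin genes made up a median of 1.25% and 0.549% of UMIs in the deep cells under 0.3% marker share, and at most 0.00548% and 0.00847% in any deep cell above it. Droplets not called as cells held 1.34% and 0.632% haemoglobin. In all, 4 and 6 deep cells held at least 0.1% haemoglobin, each of them under 0.3% marker share and with 13.04% to 14.97% mitochondrial UMIs. Markers of stroma (Col1a1, Dcn, Pdgfra and 12 others) had a median of 0.329% and 0.292% in the low range and of 0.0609% and 0.0589% in the high range. In reference stromal cells of the same libraries (1214 and 1062 cells) they summed to 0.656% and 0.627%. A pair of replicate 2 cells just above 0.3% marker share held 0.906% and 1.06% stroma markers, and both were among the 4 deep cells with the highest doublet scores. These cells meet the rule and stay in the counts. Without the cells of highest doublet score the calls given below for Lgr5, Lhx1, Cldn4, Cldn8, Id4 and Hoxc5 were lost, as were those of Pax2, Sfrp1 and Mki67, whose values are given beside them.

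**Figure D2:**
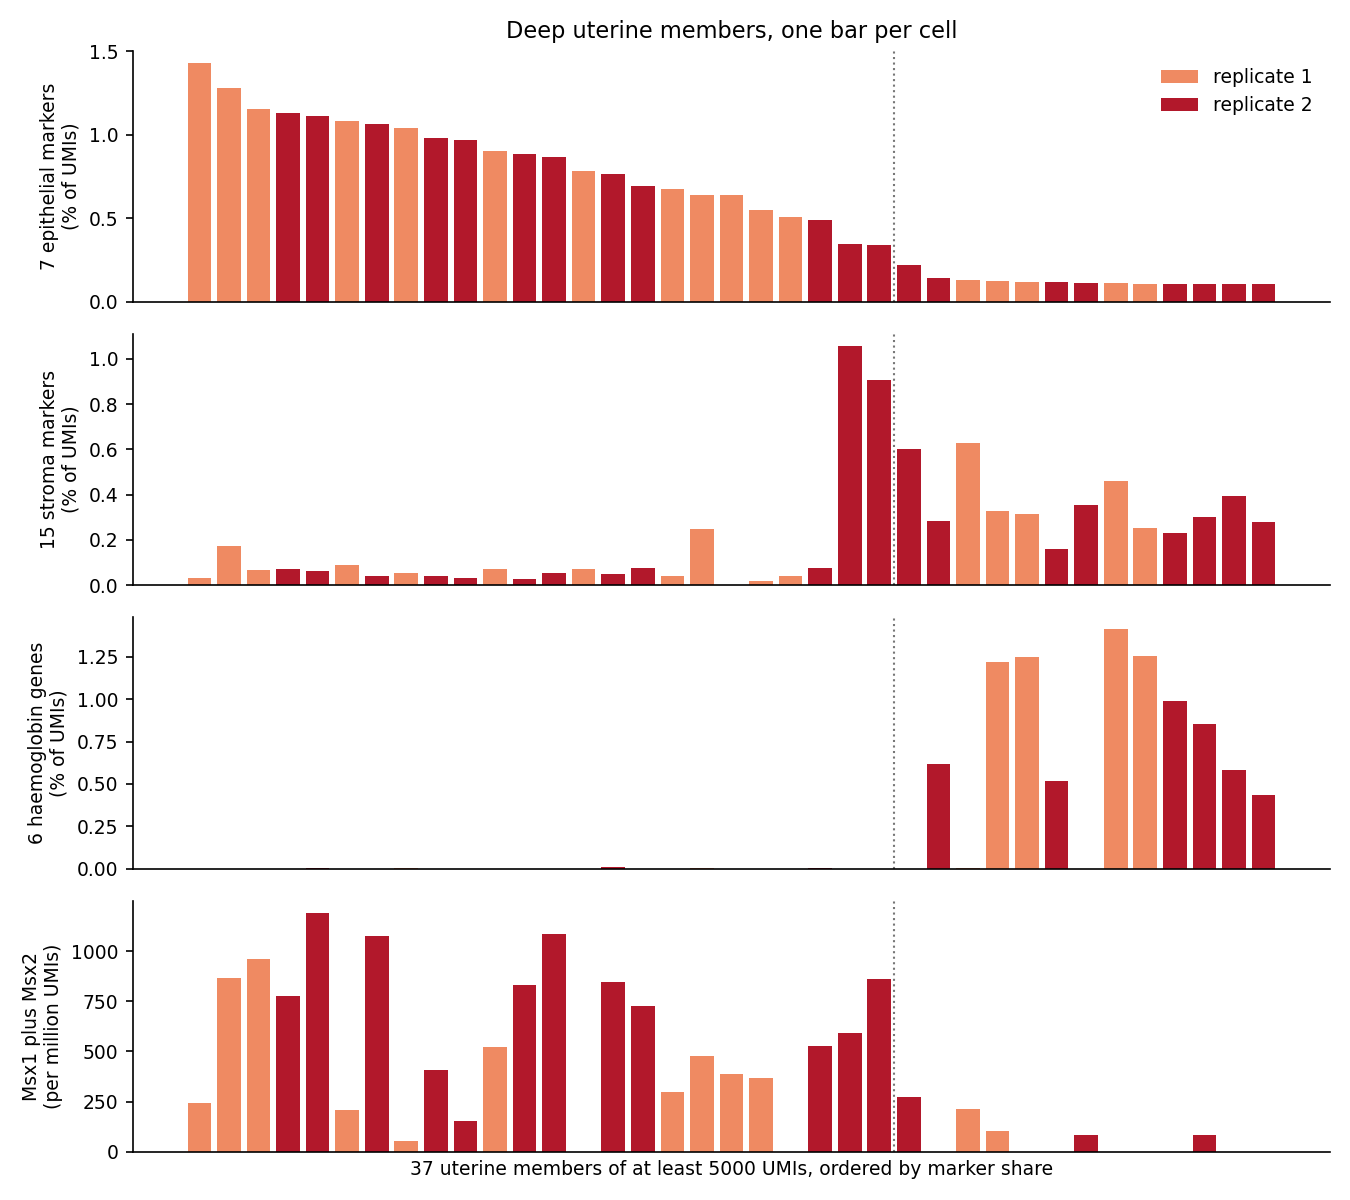
Each bar is 1 of the 37 deep uterine cells, ordered by marker share, light for replicate 1 and dark for replicate 2; the panels give, from the top, the share of UMIs from the 7 epithelial markers, from 15 stroma markers and from 6 haemoglobin genes, and the summed Msx1 and Msx2 UMIs scaled to 1000000 UMIs of the cell. Right of the dotted line, at a marker share under 0.3%, haemoglobin shares reach 1.41%. Msx counts there are 0 in most cells and lie inside the range of cells left of the line in the others.

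Epithelial genes outside the rule were high in the deep cells above 0.3% marker share and low in those below it. A list of 35 other epithelial genes summed to 0.357% and 0.342% of UMIs in deep cells and 0.339% and 0.319% in shallow cells, against 0.00596% and 0.00680% in reference stroma and 0.0280% and 0.0273% in uncalled droplets. Within the deep cells the list summed to 0.430% and 0.391% in the 24 cells above 0.3% marker share and to 0.0683% and 0.0563% in the 13 below it. In those 13 cells stroma markers summed to more, 0.463% and 0.334%, as did muscle and pericyte markers, 0.186% and 0.159%. Single cells among the 13 ran from 0% to 0.125% of the list of other epithelial genes. The sums of the 13 cells were small, 52688 and 85319 UMIs. To these, 1 cell of high doublet score in each library gave 23380 and 24086 UMIs, and another replicate 2 cell gave 23579. Krt8, the partner keratin of Krt18, had at least 1 UMI in 13 of 17 and 13 of 20 deep cells after each cell was thinned to 5000 UMIs (76.5% and 65.0%), and in 2.47% and 2.73% of stromal cells thinned the same way. Before thinning, Krt8 was found in all of the 24 cells above 0.3% marker share and in 2 of 5 and 3 of 8 of those below it. Markers of endothelium, of myeloid and lymphoid cells and of nerve and glia each stayed at or below 0.00541% of deep UMIs. Mesothelium markers, a list that holds Krt19, were higher, at 0.0169% to 0.142% of UMIs in single deep cells. Krt5 and Trp63, which mark stratified epithelium of the vagina and cervix, had 2 and 3 UMIs in all deep uterine cells together. Both were fixed by name and belong to a list of 10 markers of cervix, vagina and duct of Wolff. Another gene of that list, Pax2, had a UMI in 5 of 17 and 9 of 20 deep cells.

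Set beside reference stroma, as a description because the rule makes this contrast, the ratio of summed levels was 2082 for Tmem45b, 1160 for Dlx6, 835 for Wfdc15b, and 772 for Cldn6, a claudin of embryonic epithelia. It was 572 for Pax2, a factor of the embryonic duct, 532 for Ptgds, a prostaglandin D synthase, 506 for Dlx5, 468 for Mecom and 376 for Msx2. The ratios of Tmem45b and Dlx6 divide by very few stromal UMIs. No interval was computed for any of these ratios, so their size and order are uncertain. For the highest levels, mitochondrial, ribosomal protein and haemoglobin genes, those named Gm or Rik and the genes of the rule were left out. UMIs of 3' counting do not scale with gene length. Among the remaining genes, the 10 with the highest mean CPM included Malat1, Tpt1, Eef1a1, Ptma and Actb. These 5 were abundant in stroma as well: Actb had 2636 and 3210 CPM (a gene's UMIs scaled to a total of 1000000 for the sum) in deep cells and 3542 and 3720 in reference stroma. Ifitm3, an interferon-induced membrane protein, was also among the 10, with 2157 and 2542 CPM in epithelial cells and 371 and 398 in stroma.

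To compare uterine with oviduct epithelium, the UMIs of the deep cells were summed per library and tested with edgeR over all genes. Of 10504 genes tested, 1122 were called at an adjusted p under 0.05, which is 10.7%: 423 (4.03%) were higher in the uterus and 699 (6.65%) in the oviduct. A second comparison left out every cell with a Foxj1 UMI in both organs, because multiciliated cells are part of the oviduct. It kept 16 and 18 uterine and 49 and 89 oviduct cells, and called 409 of 8131 genes (5.03%), 152 higher in the uterus (1.87%) and 257 in the oviduct (3.16%). It uses a subset of the same cells and libraries. The oviduct sums fell from 3004156 and 4106891 to 1192314 and 1623007 UMIs, and the uterine sums to 253647 and 448514. Of the 28 and 42 deep oviduct cells left out, 6 and 12 held 5 or more Foxj1 UMIs. Whether calls lost in this comparison go with multiciliated cells or with the smaller sums was not tested. The median log2 difference of all genes tested was -0.02 in the first comparison. The second comparison rests on few cells: without uterus replicate 1 it called 0 genes in edgeR, with 1285 genes at an unadjusted p under 0.05, so none of its calls was kept without that library. A single oviduct cell of replicate 1 with 61.9% haemoglobin UMIs is among its cells. In the comparison of all deep cells, leaving out 1 library left between 455 (without oviduct replicate 2) and 806 calls (without uterus replicate 1), with 597 without oviduct replicate 1 and 698 without uterus replicate 2. DESeq2 called 466. Without the cells of highest doublet score edgeR called 690, and with the cells above 0.3% marker share alone 1157.

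RNA free in the suspension sets a limit on what can be read from these sums. If all stroma marker UMIs in the deep uterine sums were free RNA, that RNA would be 59.2% and 68.0% of the sums, and the haemoglobin counts give 10.9% and 10.7%. The free RNA bound of a gene, given below, is the largest part of its UMIs that the larger of these shares could supply. Stroma markers made up 0.177% and 0.211% of the deep uterine sums but 0.0660% and 0.0400% of the oviduct sums, and 8 of 12 tested stroma markers were called higher in the uterus, 7 of 11 in the cells above 0.3% marker share. Bounds are given below beside many, though not all, genes called higher in the uterus. The deep oviduct sums can hold free RNA too: their haemoglobin counts give 38.5% and 29.5% and their stroma markers 8.72% and 6.58%. The 38.5% counts as free RNA the haemoglobin of the replicate 1 cell with 61.9% haemoglobin UMIs. No bounds in the oviduct are given below for genes called higher there. Of the 146 genes called higher in the uterus in both comparisons, 73 had a bound over 25%.

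**Figure D3:**
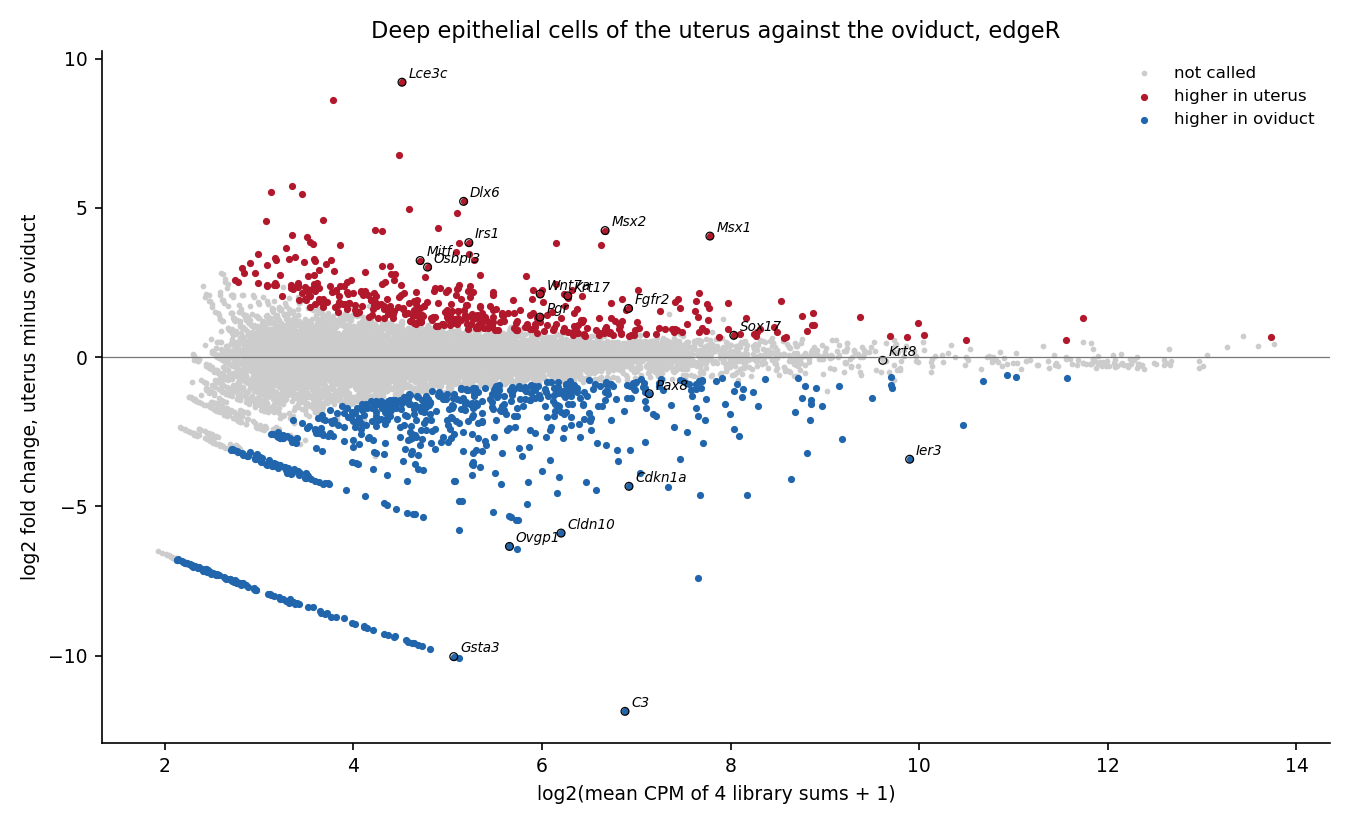
Each point is 1 of the genes tested between deep epithelial cells of the uterus and the oviduct; the x axis is the log2 of the mean CPM of the 4 library sums plus 1 and the y axis the fitted log2 fold change, uterus minus oviduct. The 423 genes called higher in the uterus are red and the 699 called higher in the oviduct are blue; genes along the lower diagonals have 0 or few UMIs in the uterus, and their fitted values are not bounds.

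Msx1 and Msx2, homeobox repressors that act in the uterine lining, were called higher in the uterus by edgeR in both comparisons and by DESeq2 in neither. Msx1 (ENSMUSG00000048450) had 267 and 557 CPM in the deep uterine sums and 47.3 and 4.87 in the oviduct sums (412 ± 205 and 26.1 ± 30.0, n = 2). Both uterine libraries lay above both oviduct libraries, with a log2 fold change of 4.05 ± 0.53 (SE, edgeR, adjusted p = 3.14e-05). Msx2 (ENSMUSG00000021469) had 158 and 223 CPM against 20.3 and 1.70, again with no overlap (4.24 ± 0.48, adjusted p = 6.94e-06). Free RNA could supply at most 3.40% of the uterine Msx1 and 2.29% of the Msx2 UMIs. Without Foxj1 cells the log2 fold changes were 2.70 (adjusted p = 0.0317) and 2.81 (adjusted p = 0.0150). That comparison drops the deepest uterine replicate 2 cell, which held 1 Foxj1 UMI among its 127699 and 108 of the 325 Msx1 UMIs of its library. In all deep cells the DESeq2 adjusted p was 0.0874 for Msx1.

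Most oviduct counts of both genes came from 1 cell of replicate 1. In that library, 113 of the 142 Msx1 UMIs and 51 of the 61 Msx2 UMIs were in the same cell, which held 180365 UMIs, 57 of the 94 Dlx5 UMIs and 8 of the 12 Dlx6 UMIs of that library, and 0 UMIs of C3, Ovgp1, Foxj1 and Nr2f1. Its Msx1 level, 627 CPM, is above the level of both deep uterine sums and below that of the highest uterine cell. Without this cell the library's Msx1 level is 10.3 CPM in place of 47.3. This cell was singled out after its values were seen, and where in the tract it came from was not tested. Without oviduct replicate 1 the Msx1 log2 fold change was 6.32, and without oviduct replicate 2 it was 3.09. In oviduct replicate 2, Msx1 had 20 UMIs in 11 cells, 6 of them in the highest cell, which held 8718 UMIs in all (688 CPM). In the uterus the highest cell held 32 of 69 and 108 of 325 Msx1 UMIs and 21 of 41 and 44 of 130 Msx2 UMIs. Msx1 had at least 1 UMI in 11 of 17 and 14 of 20 deep cells and Msx2 in 9 and 13. Thinned to 5000 UMIs a cell, Msx1 was found in 8 of 17 and 12 of 20 uterine cells, in 2 of 77 and 3 of 131 oviduct cells, and in 0.988% and 1.22% of uterine stromal cells. Before thinning, 21 of the 24 cells above 0.3% marker share held an Msx1 UMI, and 4 of the 13 below it did. These ranges also differed in depth, with medians of 11865.5 and 34824 UMIs above and 7477 and 6820.5 below.

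The sequences around the start sites of Msx1, Msx2 and Wnt7a are printed because these genes were called higher in the uterine epithelium and had few UMIs in reference stroma. The stromal levels were 1.81 and 2.12 CPM for Msx1, 0.227 and 0.788 for Msx2, and 0.454 and 0.545 for Wnt7a. Of 5 genes looked up, 3 matched. They are RefSeq sequences of build GRCm38.p6, 250 bases before to 50 after the start, on the minus strand, 5′ to 3′, at chr5:37824536-37824835 for Msx1, chr13:53472731-53473030 for Msx2 and chr6:91411304-91411603 for Wnt7a. Capitals mark matches on either strand to 3 short motifs: TAATTA, a core that many homeodomains bind, CCAAT and GGGCGG.
Msx1: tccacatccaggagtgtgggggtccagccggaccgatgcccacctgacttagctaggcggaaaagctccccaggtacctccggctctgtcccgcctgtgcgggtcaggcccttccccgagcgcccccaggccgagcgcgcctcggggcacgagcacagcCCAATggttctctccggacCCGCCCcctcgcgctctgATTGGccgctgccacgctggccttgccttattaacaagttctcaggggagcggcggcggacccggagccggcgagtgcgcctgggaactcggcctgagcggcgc
Msx2: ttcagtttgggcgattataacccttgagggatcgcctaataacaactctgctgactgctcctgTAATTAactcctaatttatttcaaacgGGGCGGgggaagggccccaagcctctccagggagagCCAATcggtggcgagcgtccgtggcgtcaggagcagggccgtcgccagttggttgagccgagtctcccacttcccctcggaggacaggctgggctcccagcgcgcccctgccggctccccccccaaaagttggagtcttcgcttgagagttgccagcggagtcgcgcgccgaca
Wnt7a: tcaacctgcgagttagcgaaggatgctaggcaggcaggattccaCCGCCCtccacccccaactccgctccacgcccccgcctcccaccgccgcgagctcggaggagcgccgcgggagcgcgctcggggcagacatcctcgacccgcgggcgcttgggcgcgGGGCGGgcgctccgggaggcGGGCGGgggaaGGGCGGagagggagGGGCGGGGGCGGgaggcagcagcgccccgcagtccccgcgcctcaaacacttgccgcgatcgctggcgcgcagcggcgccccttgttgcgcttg
The Msx2 window holds TAATTA with its first base at -187 from the start, a motif found in 5.29% of 32851 promoters of this length. Neither the Msx1 nor the Wnt7a window holds it. CCAAT, in 37.4% of promoters, is at -91 and on the opposite strand at -54 in Msx1 and at -124 in Msx2. GGGCGG, in 35.7% of promoters, matches 1 time in Msx1 and Msx2 and 6 times in Wnt7a, where the last pair run together. These matches describe letters and are not binding sites. Dlx5 and Dlx6 are named here without a sequence.

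Other homeobox and duct factors went both ways. Dlx6 (ENSMUSG00000029754) had 65.7 and 70.3 CPM in the uterus against 3.99 and 0 in the oviduct, a log2 fold change of 5.22 ± 0.59 (adjusted p = 5.93e-06; not called by DESeq2). Its neighbour Dlx5 had 96.6 and 139 CPM against 31.3 and 13.1 (2.46 ± 0.33, adjusted p = 3.63e-05), but 1.71 with an adjusted p of 0.0559 without Foxj1 cells. Both Dlx genes were thus higher in both uterine libraries than in either oviduct library. Pax8, a factor of Müllerian epithelium, had 81.2 and 89.1 CPM in the uterus and 184 and 205 in the oviduct (-1.23 ± 0.24, adjusted p = 0.00164), and its call was lost when each cell was thinned to 5000 UMIs. Pax2 had 50.2 and 84.0 against 31.6 and 41.4 CPM (0.92 ± 0.28, adjusted p = 0.0400), a call lost in several settings, among them without uterus replicate 2, without either oviduct replicate and without the cells of highest doublet score (0.83, adjusted p = 0.132). Nr2f1, an orphan nuclear receptor, had 0 uterine UMIs against 179 and 312 in the oviduct, at least 19.4-fold lower. Lhx1 had 0 against 19 and 50 UMIs, at least 2.72-fold lower, and its call ended without either uterine library. In all, 9 of the 32 tested genes of this list were higher in the uterus and 7 in the oviduct, with a median log2 difference of -0.07. Of the 32, 2 had 0 uterine UMIs and were tested only through their oviduct counts. DESeq2 called 3 and 6, and without Foxj1 cells edgeR called 7 and 5 of 29. Over all genes tested, edgeR called 4.03% higher in the uterus and 6.65% in the oviduct. Without Foxj1 cells these shares were 1.87% and 3.16%. The counts of each list below are to be read beside these shares.

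**Figure D4:**
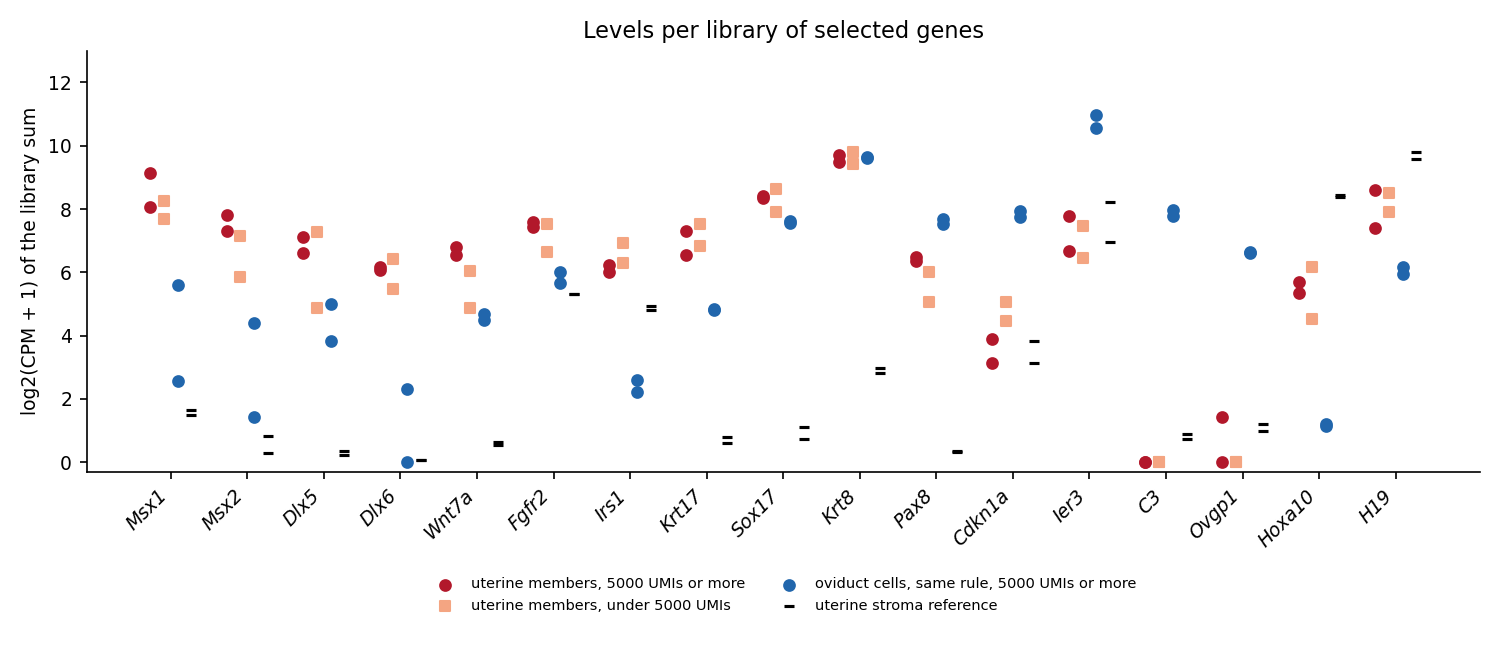
Level of selected genes in each library sum as log2(CPM + 1); circles are deep cells of the uterus (red) and the oviduct (blue), squares are shallow uterine cells and bars the uterine stroma reference. Msx1, Msx2, Dlx6 and Wnt7a are high in both ranges of depth of the uterine epithelium and lowest in stroma or the oviduct, Hoxa10 and H19 are highest in stroma, and C3 is at 0 in the uterine epithelium.

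Wnt7a (ENSMUSG00000030093), the epithelial ligand needed for uterine patterning, had 92.8 and 110 CPM in the uterus and 24.6 and 21.7 in the oviduct (101 ± 12.0 and 23.2 ± 2.09, n = 2). The libraries of the organs were well separated, with a log2 fold change of 2.11 ± 0.25 (adjusted p = 9.01e-06) and of 2.03 (adjusted p = 0.00372) without Foxj1 cells. At most 4.93% of its uterine UMIs could be free RNA, and it kept its call in every alternative tried on all deep cells. Wnt16 and Wnt11, ligands with 736 and 467 UMIs in the oviduct sums, had 2 uterine UMIs each. Their oviduct to uterus ratios were 43.6 (95% counting interval 12.0 to 361) and 27.7 (7.61 to 229). The part of free RNA in their oviduct UMIs is not given here.

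Genes of the whole Wnt list, counting those just described, did not share 1 direction. Of 35 tested, 9 were higher in the uterus and 5 in the oviduct, with a median of 0.25. The median changed sign without either uterine library (-0.16 and -0.06). Leaving out Foxj1 cells left 5 and 2 calls of 30. The shares called over all genes tested were 4.03% and 6.65%, and 1.87% and 3.16% without Foxj1 cells. Fzd1, a Wnt receptor, and Sfrp1, a secreted Wnt inhibitor, were called higher in the uterus (2.40 and 2.69), with free RNA bounds of up to 56.8% and 59.9% and more CPM in stroma than in epithelium. Without the cells of highest doublet score Sfrp1 had 1.59 and no call (adjusted p = 0.0906). Wnt4 was not called, at 108 and 32.6 CPM against 35.3 and 35.1 (0.69, adjusted p = 0.261), and its bound reached 100%. Lgr5, a receptor of R-spondins that marks stem cells in several epithelia, had 19.3 and 78.8 CPM in the uterus and 28.3 and 14.6 in the oviduct. The lower uterine value lay between the oviduct ones, and its fold change of 1.43 (adjusted p = 0.0275) became -0.22 without uterus replicate 2 and 0.33 (adjusted p = 0.822) without Foxj1 cells.

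The insulin-like growth factor and EGF receptor lists held a few called genes. Over all genes tested, 4.03% were called higher in the uterus and 6.65% in the oviduct. In the first list 3 of 14 were higher in the uterus and 2 in the oviduct (2 and 1 of 13 without Foxj1 cells). In the second 0 of 7 were higher in the uterus and 2 in the oviduct (edgeR; 1 and 3 at an unadjusted p under 0.05; 0 and 1 by DESeq2). Irs1 (ENSMUSG00000055980), the adaptor of insulin and IGF receptors, had 73.4 and 63.4 CPM in the uterus and 3.66 and 5.11 in the oviduct (3.84 ± 0.36, adjusted p = 7.01e-07), with a bound of at most 18.1%. Irs2, its relative, went the other way, at 7.73 and 12.0 against 39.9 and 49.4 CPM (-2.12, adjusted p = 0.00189). For both adaptors the uterine values lay wholly apart from the oviduct ones; without Foxj1 cells Irs2 was not called (-1.23, adjusted p = 0.225). Fgfr2, whose epithelial form receives Fgf signals from stroma, had 193 and 173 CPM against 63.6 and 49.9 (1.63 ± 0.22, adjusted p = 4.81e-05); its exons overlap Ctbp2 on the same strand in the annotation, so reads of the pair could be mixed. The ligand Fgf1 had 101 and 185 oviduct UMIs against 0 uterine ones, at least 11.3-fold lower in the uterus. Of the 15 tested genes of the Fgf list, 2 were higher in the uterus and 6 in the oviduct, among them the feedback inhibitors Spry1 (-2.18), Spry2 (-1.46) and Dusp6 (-2.89), which were named after their values were seen. Fgf1 was tested only through its oviduct counts. Without Foxj1 cells 1 and 3 of 11 were called.

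In the BMP and TGF-beta list 5 of 25 genes were higher in the uterus, 4 of them the Id genes, which are targets of BMP signals, and 1 in the oviduct, the receptor Bmpr1b (11.6 and 20.6 against 70.6 and 76.5 CPM, -2.10). Id3 had 232 and 425 against 139 and 74.3 CPM (1.63, adjusted p = 7.05e-04), a free RNA bound of 100% in both uterine libraries, and no call without uterus replicate 2. All calls of this list toward the uterus were lost without Foxj1 cells: of 19 genes edgeR called 0 higher and 1 lower (1 and 2 at an unadjusted p under 0.05; 0 and 1 by DESeq2), and Id3 had 0.77 (adjusted p = 0.310). Of 12 retinoid genes, 3 were higher in the uterus and 2 in the oviduct, and 2 and 1 without Foxj1 cells. Stra6, the retinol uptake receptor, had 65.7 and 68.6 against 6.66 and 5.36 CPM (3.45 ± 0.33, adjusted p = 1.03e-06), with a bound of 25.3%. Aldh1a3, which makes retinoic acid, had 0 and 13.7 against 55.3 and 43.3 CPM (-2.42, adjusted p = 0.00214). In the Notch list Hes1, a Notch target, was lower in the uterus (124 and 190 against 417 and 382 CPM, -1.34, adjusted p = 5.70e-04), 1 of 11 genes was higher and 2 were lower; without Foxj1 cells 0 of 8 were higher and 1 was lower (edgeR; 0 and 3 at an unadjusted p under 0.05; 0 and 1 by DESeq2).

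Ihh, the hedgehog ligand that the adult lining makes under progesterone, had 0 UMIs in the deep cells of all 4 libraries. After thinning, 0 of 17 and 0 of 20 uterine cells held it, which allows shares of cells with an Ihh UMI at this depth of up to 19.5% and 16.8% by the exact binomial interval; this limits detection and not the share of cells expressing the gene. The progesterone receptor gene Pgr was higher in the uterus, at 104 and 77.1 against 37.6 and 29.2 CPM (1.34 ± 0.26, adjusted p = 0.00173), with a bound of at most 9.02%; its call was lost without oviduct replicate 2 and after thinning. Esr1, the estrogen receptor gene, was called lower (61.8 and 27.4 against 79.6 and 91.1 CPM, -1.18, adjusted p = 0.0177). Its uterine counts could be free RNA to 68.7% and 100%, reference stroma held 230 and 204 CPM, and the cells above 0.3% marker share held 19.4 and 18.1 CPM.

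Hoxa10 and Hoxd11 were called higher in the uterine sums, where free RNA could supply all of their UMIs. Hoxa10, a segment identity gene of the uterus, had 50.2 and 39.4 CPM against 1.33 and 1.22 in the oviduct (4.97 ± 0.49, adjusted p = 1.30e-06) and 345 and 334 in reference stroma. The cells above 0.3% marker share held 24.3 and 14.1 CPM and those below it 152 and 188. The values below it rest on sums of only 52688 and 85319 UMIs, much of them from a few cells. Hoxd11 and Hoxd10 had 32 and 16 uterine UMIs against 2 each in the oviduct, and Hoxa11 had 12 against 0, too few for the test. All 4 had bounds of 100% in both uterine libraries. Hoxc4 and Hoxc5 were called higher in the oviduct, Hoxc5 with no call without the cells of highest doublet score (adjusted p = 0.0516). Hoxc4 had 1 uterine UMI against 331, a ratio of 39.2 (95% counting interval 6.99 to 1553), and Hoxc5 had 0 against 76, at least 3.00-fold lower. Of 16 tested Hox genes, 5 were higher in the uterus and 2 in the oviduct; the others were not called. Hoxc5 was tested only through its oviduct counts. The second comparison called 3 and 1 of 11.

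Sox17, a factor needed for uterine glands and for the duct, was high in both organs, at 325 and 336 CPM in the uterus and 188 and 196 in the oviduct (0.73 ± 0.20, adjusted p = 0.0233). The organs did not overlap, but the call was lost without uterus replicate 2, without either oviduct replicate and after thinning. Foxa2, the gland factor, had 0 uterine UMIs against 44 and 70 in the oviduct sums, at least 4.50-fold lower. The proliferation factor Foxm1 was higher in the uterus (27.1 and 25.7 against 6.99 and 5.11 CPM, 2.08, adjusted p = 0.00427), with a bound of up to 28.7%, and lost its call without uterus replicate 2 and without either oviduct replicate. In the list of Sox, forkhead and Klf factors 3 of 24 tested genes were higher in the uterus and 10 in the oviduct; 3 of the 24 had 0 uterine UMIs and were tested only through their oviduct counts. Once Foxj1 cells were left out, 1 and 4 of 20 were called.

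Of 31 genes of glands and of the mature lining, 15 passed the filter on low counts in the deep sums, 6 of them with 0 uterine UMIs and tested only through their oviduct counts. C3 (ENSMUSG00000024164), a complement gene of the adult uterine lining, had 0 UMIs in every deep and shallow uterine cell and 217 and 250 CPM in the oviduct, at least 66.3-fold lower. The secreted iron-binding protein gene Ltf had 0 uterine UMIs against 89 and 192, at least 11.1-fold lower, and the transcription cofactor gene Cited4 0 against 146 and 245, at least 15.4-fold lower. Of the 15 tested genes, 0 were called higher in the uterus and 9 in the oviduct (edgeR; 1 and 10 at an unadjusted p under 0.05; 0 and 7 by DESeq2).

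Genes of multiciliated and secretory cells, which the oviduct epithelium forms, were measured next. Foxj1, the master factor of multiciliated cells, had 1 and 2 uterine UMIs against 171 and 273, a ratio of 17.5 (95% counting interval 5.96 to 85.3), and Pifo, a cilia gene, 0 against 172 and 158, at least 13.03-fold lower. Of the 35 multiciliated genes in the files, 19 passed the filter on low counts; 0 were called higher in the uterus (0 at an unadjusted p under 0.05 and 0 by DESeq2) and 13 in the oviduct. Of the 19, 9 had 0 uterine UMIs and were tested only through their oviduct counts. Ovgp1, the oviduct glycoprotein gene, had 1 uterine UMI against 698, a ratio of 82.7 (14.8 to 3270). Gsta3, a glutathione transferase gene, had 0 against 477, at least 18.8-fold lower. Of the 12 secretory genes listed, 7 were tested and 3 called, Ovgp1, Pax8 and Gsta3, each higher in the oviduct. Gsta3 was tested only through its oviduct counts.

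Several uterine genes that stood out by size are less studied in this tissue. Lce3c (ENSMUSG00000045475), a late cornified envelope gene named for its role in skin, had 61.8 and 25.7 CPM in the uterus and 0 UMIs in both oviduct libraries, at least 87.2-fold higher (adjusted p = 2.87e-06). It was tested only through its 31 uterine UMIs. They lay in 4 and 6 deep cells, with 11 and 8 UMIs in the highest cell of each library. Tmem45b, a membrane protein gene, had 69.6 and 56.6 against 6.32 and 2.43 CPM (3.82 ± 0.42, adjusted p = 4.59e-06), and Cxcl17, a mucosal chemokine gene, 88.9 and 34.3 against 5.33 and 3.90 (3.50 ± 0.45, adjusted p = 2.48e-05). These 3 genes had bounds of at most 3.73% in the uterus. Further calls toward the uterus were Mitf (3.24), a factor best known from melanocytes, Osbpl3 (3.02), Slc30a4 (2.27), a zinc transporter gene, Dclk1, Uchl1 and Epsti1 (2.24 each), Pitpnc1 (2.23) and Col12a1 (2.21). Their bounds ran from 4.64% for Epsti1 to 19.7% for Col12a1; a bound of at most 25% and libraries that do not overlap were conditions for naming them. All of these genes kept their call in every alternative of the comparison of all deep cells that gave them a value.

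Keratins and junction genes were mixed. Of 7 tested keratins, 1 was higher in the uterus and 1 in the oviduct. Of 20 tested genes of tight and adherens junctions, 3 were higher in the uterus and 2 in the oviduct, with a median of -0.23. Without Foxj1 cells 2 and 1 of 17 junction genes were called. Krt8 had 827 and 713 CPM in the uterus and 786 and 806 in the oviduct (-0.11 ± 0.19, adjusted p = 0.798), and the uterine values lay on either side of the oviduct ones. Krt17, a keratin of activated and basal epithelia, had 158 and 92.5 against 27.0 and 27.5 CPM (2.05 ± 0.26, adjusted p = 2.24e-05), and Krt15 had 23.2 and 51.4 against 102 and 140 (-1.59, adjusted p = 0.00187). Among the claudins, which seal tight junctions, Cldn6 (1.08), Cldn23 (2.13) and Cldn8 (1.84) were higher in the uterus. Cldn10 had 2 uterine UMIs against 1007, a ratio of 59.6 (16.5 to 493), and Cldn4 had 65.7 and 108 against 158 and 165 CPM (-0.86, adjusted p = 0.0288, not called without Foxj1 cells at -0.17). The Cldn4 call was also lost without uterus replicate 1 and without either oviduct replicate. Of the basement membrane and integrin genes, Itga6, a subunit of laminin receptors, had 19.3 and 17.1 CPM in the uterus against 99.9 and 123 in the oviduct (-2.69, adjusted p = 1.67e-05), with a call lost after thinning. Its uterine values lay apart from the oviduct ones, while 4 of 31 genes of the list were higher in the uterus and 3 in the oviduct. Its calls toward the uterus were lost without Foxj1 cells, with 0 higher and 2 lower of 22 (edgeR; 3 and 3 at an unadjusted p under 0.05; 0 and 2 by DESeq2).

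A few G2/M genes were called higher in the uterus, and their number depended on single libraries. Mki67, a marker of cycling cells, had 444 and 180 CPM in the uterus and 157 and 83.8 in the oviduct (1.24 ± 0.32, adjusted p = 0.0162), and lost its call without uterus replicate 1, without oviduct replicate 2, after thinning and without the cells of highest doublet score (0.86, adjusted p = 0.379). Its free RNA bounds were 6.58% and 17.1%, and reference stroma held 166 and 182 CPM. In the G2/M list 5 of 24 genes were higher in the uterus and 0 lower, with a median of 0.75; none was lower at an unadjusted p under 0.05, and DESeq2 called 1 and 0. Without oviduct replicate 2 the count was 0, without uterus replicate 1 it was 1, without oviduct replicate 1 it was 10, and it was 10 with a replicate block. Without Foxj1 cells it was 1 of 24, Mki67, with a median of 0.49. Of the 5 genes, Cdk1 had the highest bound, 41.7% in both uterine libraries. Of 24 S phase genes edgeR called 0 (4 higher and 1 lower at an unadjusted p under 0.05) and DESeq2 0. Thinned to 5000 UMIs, Mki67 was found in 6 of 17 and 7 of 20 uterine cells, and in 18.5% and 22.0% of uterine stromal cells.

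Cdkn1a (ENSMUSG00000023067), the p21 inhibitor of cyclin-dependent kinases, was much lower in the uterus, at 7.73 and 13.7 CPM against 216 and 244 (-4.33 ± 0.35, adjusted p = 1.17e-07). It had a UMI in 2 of 17 and 3 of 20 uterine cells and in 63 of 77 and 107 of 131 oviduct cells; after thinning these were 1, 1, 42 and 68 cells. The early response gene Ier3 had 100 and 218 against 1505 and 1991 CPM (-3.42 ± 0.28, adjusted p = 1.17e-07). Both genes kept their call in every alternative tried on all deep cells. The list of early response and stress genes, which dissociation of tissue is known to induce, held 2 genes higher in the uterus and 16 higher in the oviduct of 30 tested, and 1 and 10 of 29 without Foxj1 cells. Its genes made up 0.570% and 0.657% of the deep uterine sums and 1.24% and 1.58% of the oviduct ones. In reference stroma of the same libraries the list was also lower in the uterus, at 0.549% and 0.734% against 1.02% and 1.31%. Stromal Cdkn1a stood at 7.82 and 13.1 CPM in the uterus and 90.3 and 91.1 in the oviduct. The 16 include Fos (-2.28), Atf3 (-2.75) and Gadd45a (-1.99), named after their values were seen. Egr3 is also among the 16, with 0 uterine UMIs and tested only through its oviduct counts. In the 24 cells above 0.3% marker share and their oviduct counterparts the counts were again 2 and 16. The heat shock genes Hspa1a and Hspa1b, near-identical copies between which reads can be split, were called higher in the uterus (2.32 and 1.66), with bounds of 100%, and Hspa1b lost its call without either uterine library and without oviduct replicate 2. The deep cells had medians of 9739 and 19282 UMIs in the uterus and 25132 and 21489 in the oviduct. Their median mitochondrial shares were 12.65% and 7.68% in the uterus and 4.59% and 5.25% in the oviduct. Time and handling are not given per organ, and their part in these calls was not tested.

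Transport and defence genes that were called were mostly higher in the oviduct. So were the calls over all genes tested, with 4.03% higher in the uterus and 6.65% in the oviduct. Slc4a4, a bicarbonate cotransporter gene, had 7.73 and 5.14 against 102 and 167 CPM (-4.54 ± 0.48, adjusted p = 2.89e-06), and Kcnn4, a potassium channel gene, 0 uterine UMIs against 60 and 70, at least 5.13-fold lower. Of 18 genes of ion and water transport edgeR called 0 higher in the uterus and 6 in the oviduct (1 and 10 at an unadjusted p under 0.05). DESeq2 called 0 and 4. Of the 18, 1 had 0 uterine UMIs and was tested only through its oviduct counts. In the immune defence list 2 of 26 tested genes were higher in the uterus and 9 in the oviduct; 2 of the 26 had 0 uterine UMIs and were tested only through their oviduct counts. Without Foxj1 cells 0 of 17 were higher in the uterus and 8 in the oviduct (edgeR; 3 and 10 at an unadjusted p under 0.05; 0 and 6 by DESeq2). Of 28 genes of amino acid, glucose and lipid handling, 7 were higher in the uterus and 3 in the oviduct. All 7 calls toward the uterus were lost without Foxj1 cells, where of 23 genes 0 were higher and 2 lower (edgeR; 4 and 3 at an unadjusted p under 0.05; 0 and 2 by DESeq2).

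Imprinted growth genes were called higher in the uterus in 6 of 15 cases and lower in 0, with a median of 0.74 (edgeR; 8 and 1 at an unadjusted p under 0.05; 4 and 0 by DESeq2). The second comparison called 3 of 14 higher and 0 lower (5 and 0 unadjusted; 3 and 0 by DESeq2). H19 had 390 and 170 CPM against 71.6 and 60.1 (1.95 ± 0.28, adjusted p = 8.60e-05), and the growth inhibitor gene Cdkn1c 344 and 437 against 133 and 86.4 (1.81 ± 0.24, adjusted p = 2.84e-05). Reference stroma held 885 and 762 CPM of H19 and 1124 and 999 of Cdkn1c, and the bounds reached 100% and 77.8%. The cells above 0.3% marker share held 160 and 56.2 CPM of H19, and those below it 1291 and 832, in sums of only 52688 and 85319 UMIs. The part of stromal RNA in these calls was not tested beyond these bounds.

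**Figure D5:**
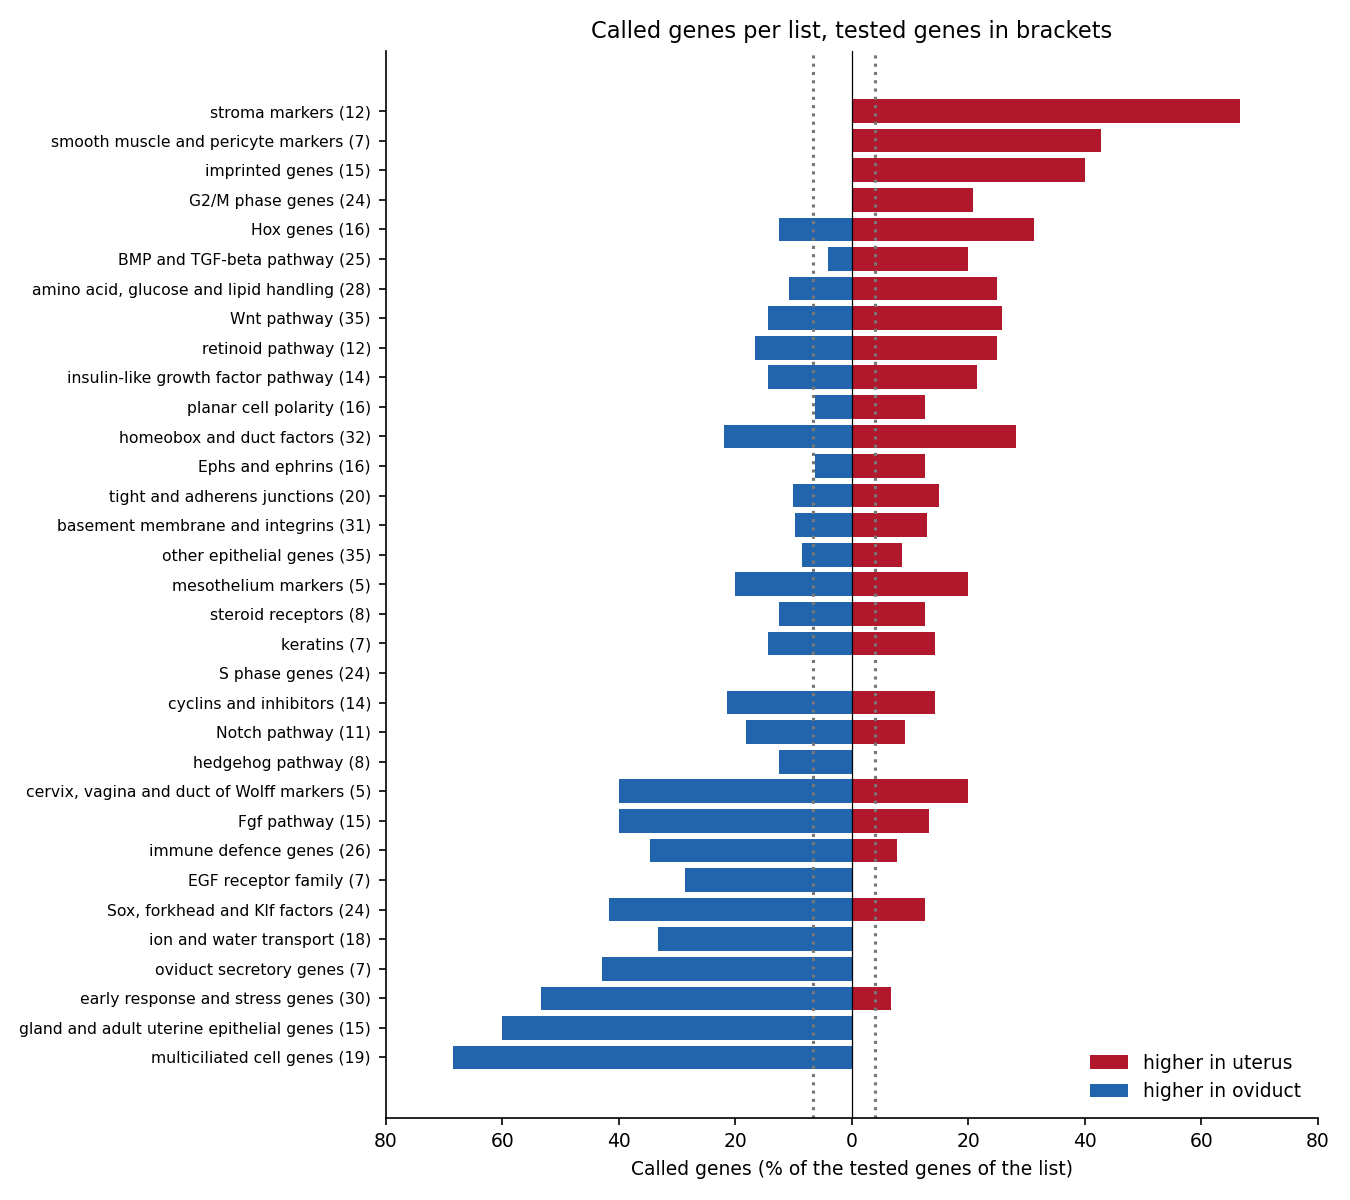
For each gene list, the bars give the percent of its tested genes (number in brackets) called higher in the uterus (red, right) or in the oviduct (blue, left) in deep epithelial cells; the dotted lines mark the shares over all tested genes, 4.03% and 6.65%. Multiciliated, gland and early response genes reach furthest toward the oviduct, and stroma markers reach furthest toward the uterus.

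In the shallow uterine sums of 91818 and 142517 UMIs, Msx1 had 28 and 29 UMIs (305 and 203 CPM), Msx2 had 13 and 8 (142 and 56.1 CPM) and Dlx6 4 and 12 (43.6 and 84.2 CPM). Krt8 stood at 686 and 898 CPM and Sox17 at 240 and 393. For Msx2 both values lay below those of the deep cells, and for the other 4 genes the shallow and deep values overlapped. C3 and Foxa2 had 0 UMIs in the shallow cells and Cdkn1a had 3 in each library, 32.7 and 21.1 CPM, both above its values in the deep cells. Shallow cells held 0.0915% and 0.152% stroma markers. Of them, 5 and 21 had under 1% mitochondrial UMIs, and 4 and 13 held at least 0.1% haemoglobin.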

How the data were processed

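Single-cell RNA libraries of the 10x Genomics Chromium 3' type, 2 of the oviduct and 2 of the uterus, were used. The deposited values are UMI counts per gene and barcode, not normalized. The matrices of called barcodes came from Cell Ranger 6.0.1 and those of all barcodes from version 4, per the file headers, and the submitters' processing notes also name Seurat 4.2.3 and mm10. No source used here gives the annotation or the treatment of intronic reads. Libraries held 114419939, 82213345, 61117726 and 70172415 UMIs (oviduct, then uterus). Pairs of libraries shared 8 to 15 called barcodes.

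The members, gene lists and tests were chosen with earlier results of these data known. Cells were selected in Python 3.11.15 with the rule in the text. No doublets were removed: leaving out the highest Scrublet scores (scanpy 1.11.5, 0.8% per 1000 barcodes) was an alternative. Counts of cells with at least 5000 UMIs were summed per library and fitted in R 4.3.3 by edgeR 4.0.16 (filterByExpr, TMM scaling, quasi-likelihood F-test, organ as the single term, 2-sided), with Benjamini-Hochberg adjustment over all genes tested. The genes of the rule were not counted. Levels are CPM of the sums. A gene at 0 UMIs in an organ has a bound against 3 counts over that organ's libraries, and one at 1 to 3 counts an exact 95% interval. Intervals cover counting error only. Free RNA came from uncalled droplets of 1 to 100 UMIs. On simulated data (5 sets of 200 changed genes) the test recovered 35.2% of 2-fold and 90.4% of 4-fold differences over 10511 genes, with 3.53% false calls. For the fit without Foxj1 cells these were 34.4%, 95.4% and 7.42% over 8138 genes. The simulated sums took their dispersions from these same libraries, so the false shares are not error rates of the real calls.

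Named genes are the 15 largest changes toward the uterus and the 8 largest toward the oviduct among genes called in both comparisons (399 genes), if they averaged 20 CPM or more, had no overlap of libraries and a bound of at most 25%. Added are the 2 largest called changes per direction in each of 29 lists, 23 genes fixed by name, and, against stroma, the 20 largest ratios and 10 highest levels. Not all of the 136 are described. The choice skipped haemoglobin, ribosomal protein and mitochondrial genes and those named Gm or Rik. Alternatives were DESeq2 1.42.0, other scaling, filters, depths, marker shares, free RNA subtraction, a replicate block and leaving out each library.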

Additional observations from a re-analysis of the deposited data

How the results depend on the processing

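Of the 175 called values of named genes, 47 kept their call in every alternative that gave a value. Over 2962 alternatives of called values, 2450 left the call in place, 510 ended it and 2 turned the direction. Between all deep cells, 1122 genes were called. DESeq2 called 466, thinning each cell to 5000 UMIs left 222, at most 10% mitochondrial UMIs with at least 1000 genes 684, leaving out the highest Scrublet scores 690, and subtracting the largest free RNA share 550, of which 22.9% were higher in the uterus against 37.7% of the 1122. Leaving out 1 library gave 455 to 806. Without Foxj1 cells, 409 were called; DESeq2 called 176, no filter on low counts gave 738, cells of any depth 633 and thinning 97. Subtraction of free RNA left 0 edgeR calls (260 at an unadjusted p under 0.05), with 96.7% taken from oviduct replicate 1 by its haemoglobin, and leaving out 1 library gave 0 (1285 unadjusted) to 478. The causes of these moves were not tested. Among the deep cells of oviduct replicate 1, only 1 held 0.1% haemoglobin or more, at 61.9%. The share subtracted there counts the haemoglobin of that cell as free RNA.

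The replicate numbers are shared between the organs by label. The correlation of replicate differences between the organs was 0.0175 over 10511 genes, and whether the numbers mark the pools is not given in the labels, nor settled by 2 pairs. With the replicate block 1101 genes were called, and 453 without Foxj1 cells.

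The share of kept barcodes differed by -1.94 percentage points (-3.30 to -0.591 without 1 library). The deep share differed by -20.1 points, by -35.1 with a marker share of at least 0.3%, and by -25.2 to -15.1 without 1 library. The mitochondrial share of deep minus shallow sums, 2.72 points, was 4.59 with the depth boundary at 3000 UMIs and 0.457 at 10000.

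Directions turned for 6 genes. Wnt4 had a log2 fold change of -0.14 with a marker share of at least 0.3% and ran from -0.16 to 1.51 without 1 library, Prom1 from -0.24 to 2.17 and Lgr5 from -0.22 to 1.87. Krt8 had 0.0906 with free RNA subtracted and 0.0222 at the 0.3% marker share. Without Foxj1 cells, values without 1 library ran from -0.77 to 1.35 for Prom1, -0.77 to 0.13 for Cldn4, -0.75 to 1.00 for Lgr5, -0.34 to 0.0852 for Krt8 and -0.31 to 0.27 for Hbegf. There Cldn4 had 0.00521 after thinning, Lgr5 -0.16 without the highest Scrublet scores and -0.0790 with free RNA subtracted, and Krt8 0.0388 at any depth and 0.0330 at the 0.3% marker share. Hbegf had -0.0696 with no filter, -0.0102 with the replicate block, -0.0573 from 2000 UMIs, -0.0637 at any depth and -0.0334 with free RNA subtracted.

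With 37 deep cells in 2 libraries, a gene at 0 uterine UMIs is limited only by its bound, and 0 cells with a UMI allow a share of cells with a UMI of up to 19.5% and 16.8%, by counting of cells alone.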
